A study of Rattus norvegicus with 18 samples.

Results

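Microglia are the resident macrophages of the neural retina, and other macrophages and monocytes lie around vessels and in the choroid. A set of 37 genes that mark these cells was chosen by name as known markers of the lineage, with earlier results of these data known, and all 37 were found among the 32285 genes of the retina table and the 32552 genes of the RPE/choroid table. They fall into 4 classes by role: 7 homeostatic genes of resting microglia, 15 lineage genes shared by microglia and macrophages, 10 genes linked to activation or phagocytosis, and 5 genes of border-associated macrophages and monocytes.

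RNA was sequenced from neural retina and from RPE/choroid (the retinal pigment epithelium, RPE, with the vascular layer behind it) of wild-type Fischer 344 rats, an inbred strain. Each tissue had 3 libraries from young rats of 4 months, 3 from untreated aged rats of 24 months that drank water, and 3 from aged rats of 24 months that had received 8-aminoguanine (8-AG) for 8 weeks, at a daily dose of 5 mg/kg dissolved in what they drank. 8-AG is an endogenous purine that inhibits purine nucleoside phosphorylase. The comparisons ask how aging changes these genes in each tissue and whether 8-AG changes them in aged rats.

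The cells of this lineage depend on the receptor CSF1R for survival, and the transcription factors SPI1 (PU.1) and IRF8 set their gene program. Homeostatic microglia carry P2RY12, TMEM119 and CX3CR1, with which they sense nucleotides and the neuronal ligand fractalkine. When microglia take up debris or dying cells, they signal through TREM2 and its adaptor TYROBP and are known to raise genes such as Gpnmb, Spp1, Lgals3 and Clec7a, often with lower homeostatic genes. CD163, MRC1 (CD206) and LYVE1 mark macrophages at tissue borders.

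Library totals were 12283458 to 15644346 counts in retina and 28573828 to 48203050 in RPE/choroid, and levels are given as CPM, counts scaled to a common library total after TMM normalization within a tissue. The tables of the 2 tissues were counted and prepared differently, so levels are not compared between tissues. The 3 treated retina libraries are labelled total RNA and the other 15 libraries polyA RNA, so that in retina 8-AG and this label cannot be told apart. The extraction notes describe poly-A capture for the retina libraries of all groups, so whether the label marks a different preparation is not known. In retina, aged library 2 held the highest sums of dendritic cell markers (104.646 CPM against 21.7 and 25.3 in the other aged libraries) and erythrocyte markers (496 against 95.2 and 106). In RPE/choroid, 8-AG library 1 stood apart, with skeletal muscle markers at 51154 CPM against at most 4738 elsewhere and rod markers at 49207 CPM against at most 18042. A gene was called changed when the Benjamini-Hochberg adjusted p of the edgeR quasi-likelihood test, over all genes tested, was under 0.05. The rule of the study, an unadjusted P under 0.05 together with a change of more than 1.5-fold, is counted in the comparisons where no gene of the set was called.

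Microglia and macrophage genes were higher in aged than in young neural retina. Of the 37 genes, 29 passed the filter on low counts, 23 were higher in aged retina and none was lower. The median change over those tested was 1.88 on the log2 scale, against 0.0019 over all genes tested. Over all genes tested, 7.29% were higher in aged retina. Because a gene that is low in young retina passes the filter only if it is high in aged retina, the same fit was run without the filter, where 25 of the 37 genes were higher against 5.75% of all genes. In 25 of the 29 genes every aged library lay above every young library, which held for 17.5% of all genes tested. In bulk tissue, more cells of a type and more RNA per cell cannot be told apart.

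**Figure D1:**
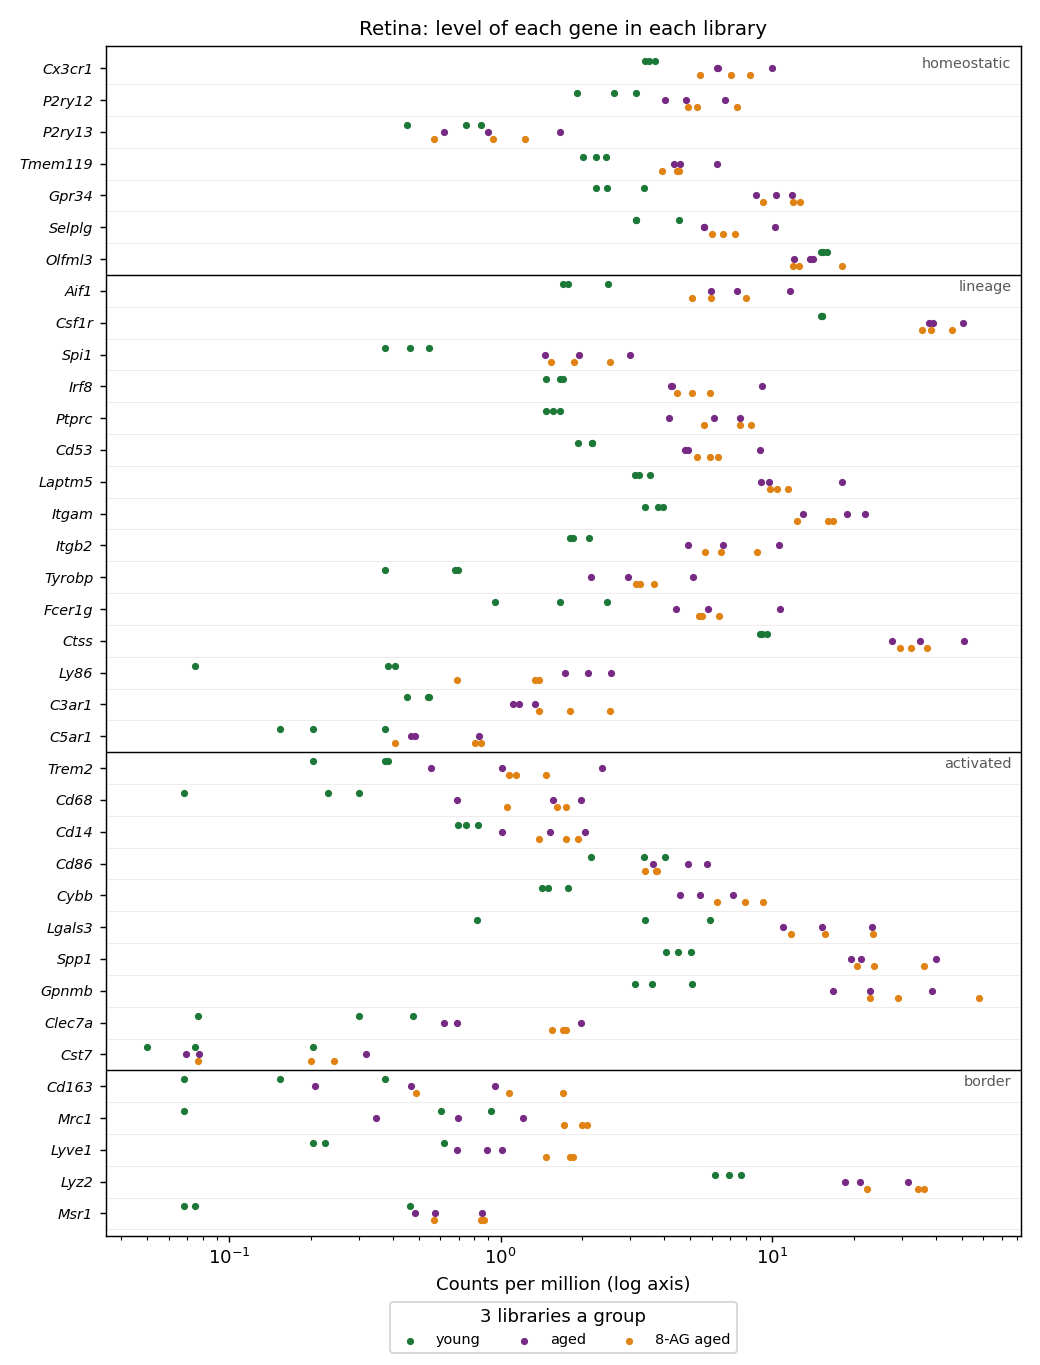
Level of each of the 37 genes in each retina library, in CPM on a log axis, with young, aged and 8-AG aged libraries as points (3 libraries a group) and horizontal lines between the 4 classes; the young value of 0 for Cst7 is drawn at 0.05. Csf1r stands at 15.2 to 15.3 CPM in young retina and at 37.8 to 50.3 CPM in aged retina, while Olfml3, Cd86 and P2ry13 show groups that lie close together or overlap.

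All 14 lineage genes that were tested, of 15, were higher in aged retina, with log2 fold changes from 1.23 to 2.83. Some of them, such as Ly86, Spi1, Tyrobp and C3ar1, were low in young retina and passed the filter only through the aged libraries. Without the filter, all lineage genes were called except C3ar1 (adjusted p = 0.0682, edgeR) and C5ar1 (adjusted p = 0.218, edgeR). Csf1r, the receptor for CSF1 and IL34, was at 15.3, 15.2 and 15.3 CPM in young retina, at 39.3, 50.3 and 37.8 CPM in aged retina and at 45.9, 38.5 and 35.8 CPM in 8-AG aged retina. The young libraries lay close together and below every aged library, and the 8-AG aged libraries overlapped the aged ones. The log2 fold change of Csf1r with age was 1.48 ± 0.11 (SE, adjusted p = 9.23e-05, edgeR). Itgam, the integrin alpha chain known as CD11b, was at 3.39, 3.98 and 3.81 CPM in young and 18.9, 22.1 and 12.9 CPM in aged retina, and its log2 fold change was 2.27 ± 0.20 (adjusted p = 0.000205, edgeR). Its partner Itgb2 rose by 1.94 ± 0.29 on the log2 scale (adjusted p = 0.00247, edgeR). Aif1, which encodes IBA1, the usual stain for microglia, was at 1.70, 2.48 and 1.77 CPM in young and 7.45, 11.7 and 5.96 CPM in aged retina. That is a log2 fold change of 2.08 ± 0.29 (adjusted p = 0.00164, edgeR), and the groups did not overlap.

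Ptprc, the leukocyte antigen CD45, rose by 1.93 ± 0.26 on the log2 scale (adjusted p = 0.00132, edgeR), and Laptm5, a lysosomal membrane protein of blood-derived cells, by 1.90 ± 0.29 (adjusted p = 0.00396, edgeR). Tyrobp, the signalling adaptor of TREM2, was at 0.693, 0.375 and 0.680 CPM in young and 2.95, 5.10 and 2.15 CPM in aged retina. Its log2 fold change was 2.53 ± 0.41 (adjusted p = 0.00317, edgeR). Ctss, the lysosomal protease cathepsin S, was at 9.17, 9.01 and 9.59 CPM in young and 35.0, 50.7 and 27.7 CPM in aged retina, and its log2 fold change was 2.03 ± 0.23 (adjusted p = 0.00301, edgeR). Ly86, a partner of a toll-like receptor homolog, had the widest change of the lineage class, 2.83 ± 0.45 (adjusted p = 0.00282, edgeR), from 5, 1 and 6 counts in young to 27, 40 and 25 counts in aged retina. Spi1, Irf8, Cd53 and Fcer1g, the Fc receptor gamma chain, were also called, between 1.58 and 2.19. Fcer1g lost its call when young library 2 or 3 was left out, with log2 fold changes of 2.05 and 1.76.

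The receptors for complement anaphylatoxins in the set, C3ar1 and C5ar1, were low. C3ar1 was at 0.540, 0.4503 and 0.544 CPM in young and 1.16, 1.34 and 1.11 CPM in aged retina, with 6 to 8 and 15 to 21 counts, and its log2 fold change of 1.23 ± 0.33 was called (adjusted p = 0.0357, edgeR). That call was lost without the filter, with DESeq2 and when any of the 6 libraries was left out, at log2 fold changes of 1.14 to 1.28. C5ar1 was at 0.154, 0.375 and 0.204 CPM in young and 0.465, 0.830 and 0.485 CPM in aged retina, with 2 to 13 counts, and was not tested in the filtered fit. Fitted with no filter, it stood at 1.27 ± 0.61 on the log2 scale (adjusted p = 0.218, edgeR).

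Promoter sequences are shown for 4 of these genes that were higher in aged retina and hold a motif of the factors named above. RefSeq's promoter table for build GRCr8 (250 bases before to 50 after each gene's start) held 25 of the 37 genes. The missing entries were Selplg, Aif1, Tmem119, Spi1, Fcer1g, P2ry12, C5ar1, Ly86, Msr1, Lgals3, Tyrobp and Itgb2. The motif GAGGAAGT, searched for SPI1 on both strands, occurred in 2 of the 25 promoters (8.0%), those of Ctss and Cd53, and in 810 of 33469 promoters of the whole table (2.42%). The motif GAAANNGAA, searched for interferon regulatory factors on both strands, occurred in 5 of the 25, those of Ctss, Csf1r, Cybb, Lyz2 and Cd14, and in 3251 of 33469 (9.71%). The matches are letters in these windows and no evidence of binding. The sequences run 5′ to 3′ along the gene, with the matches in capitals, and no matches overlapped.
Ctss: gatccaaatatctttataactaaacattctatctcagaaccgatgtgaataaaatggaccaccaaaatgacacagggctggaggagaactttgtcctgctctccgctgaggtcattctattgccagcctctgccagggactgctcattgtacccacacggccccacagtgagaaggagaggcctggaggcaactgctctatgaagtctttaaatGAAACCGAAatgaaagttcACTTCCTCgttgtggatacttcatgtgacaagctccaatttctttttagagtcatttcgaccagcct
Cd53: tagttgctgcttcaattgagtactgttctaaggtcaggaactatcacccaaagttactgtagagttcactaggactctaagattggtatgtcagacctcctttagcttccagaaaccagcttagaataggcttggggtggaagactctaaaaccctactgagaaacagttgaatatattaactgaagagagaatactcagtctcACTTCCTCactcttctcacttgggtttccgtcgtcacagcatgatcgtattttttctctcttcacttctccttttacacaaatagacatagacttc
Csf1r: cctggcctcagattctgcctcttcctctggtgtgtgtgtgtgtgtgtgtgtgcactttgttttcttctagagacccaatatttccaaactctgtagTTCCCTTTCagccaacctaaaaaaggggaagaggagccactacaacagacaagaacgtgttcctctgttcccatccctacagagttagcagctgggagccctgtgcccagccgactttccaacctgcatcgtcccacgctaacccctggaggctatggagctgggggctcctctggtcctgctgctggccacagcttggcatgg
Cybb: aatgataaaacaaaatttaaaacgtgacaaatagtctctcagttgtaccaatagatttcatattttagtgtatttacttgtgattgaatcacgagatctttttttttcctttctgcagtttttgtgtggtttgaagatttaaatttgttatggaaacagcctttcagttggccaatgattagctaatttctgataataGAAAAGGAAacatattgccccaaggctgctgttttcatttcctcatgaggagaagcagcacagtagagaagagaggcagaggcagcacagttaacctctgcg
The Ctss window is chr2:185775146-185775445 on the plus strand, with the interferon regulatory factor motif beginning 36 bases and the SPI1 motif beginning 17 bases before the start. The Cd53 window is chr2:197087847-197088146 on the minus strand, with the SPI1 motif beginning 46 bases before the start. The Csf1r window is chr18:56834129-56834428 on the plus strand, with the motif beginning 154 bases before the start. The Cybb window is chrX:16065016-16065315 on the minus strand, with the motif beginning 52 bases before the start. Ctss was the one gene of the 25 whose window held both motifs.

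Of the 7 homeostatic genes, 5 were higher in aged retina. The class median was 1.02 on the log2 scale, beside 1.99 for the 14 lineage genes tested, and the difference between the classes was not tested. Gpr34, a lysophosphatidylserine receptor, had the largest change of the class, at 2.47, 3.38 and 2.25 CPM in young and 10.3, 11.8 and 8.73 CPM in aged retina, and its log2 fold change was 1.93 ± 0.20 (adjusted p = 0.000326, edgeR). Cx3cr1, the fractalkine receptor, was at 3.70, 3.53 and 3.40 CPM in young and 6.29, 10.02 and 6.30 CPM in aged retina, and its log2 fold change was 1.09 ± 0.21 (adjusted p = 0.00825, edgeR). P2ry12, Tmem119 and Selplg were also called, between 0.98 and 1.18. The call of P2ry12 was lost without young library 1 or 3 or aged library 2, at 0.79 to 1.04, and that of Selplg without young library 1 or 2 or aged library 2, at 0.63 to 0.89. P2ry13, a further purine receptor, was low and not called (log2 fold change 0.65 ± 0.44). Olfml3, a secreted protein of the olfactomedin family, had a log2 fold change of −0.21 ± 0.10 and was not called (adjusted p = 0.212, edgeR). It was at 15.9, 15.2 and 15.4 CPM in young and 14.2, 13.8 and 12.0 CPM in aged retina, each aged library below each young one.

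The classes were also set against the lineage genes. The summed lineage level was 44.5, 44.4 and 44.5 CPM in young and 147, 213 and 123 CPM in aged retina, and the homeostatic sum was 30.7, 31.1 and 30.7 CPM in young and 46.4, 60.4 and 42.0 CPM in aged retina. The ratio of the homeostatic to the lineage sum was 0.693 ± 0.0059 (SD, n = 3) in young, 0.314 ± 0.029 in aged and 0.345 ± 0.016 in 8-AG aged retina. Olfml3 was the largest part of the young homeostatic sum, so the ratio was also taken without it, a choice made after seeing the data. It was then 0.345 ± 0.013 in young, 0.227 ± 0.014 in aged and 0.248 ± 0.012 in 8-AG aged retina. Young and aged libraries did not overlap in either ratio. Relative to the lineage sum, 6 of the 7 homeostatic genes were lower in every aged library than in any young one, but so were 94.9% of all genes tested, because the lineage sum itself was higher, and 0.521% of all genes were higher without overlap. Gpr34 overlapped, with means of 6.06% of the lineage sum in young and 6.56% in aged retina. Genes within the lineage class also shifted: Csf1r went from a mean of 34.3% of the sum to 27.1%, and Itgam from 8.38% to 11.3%, both without overlap. No test was made of these ratios.

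**Figure D2:**
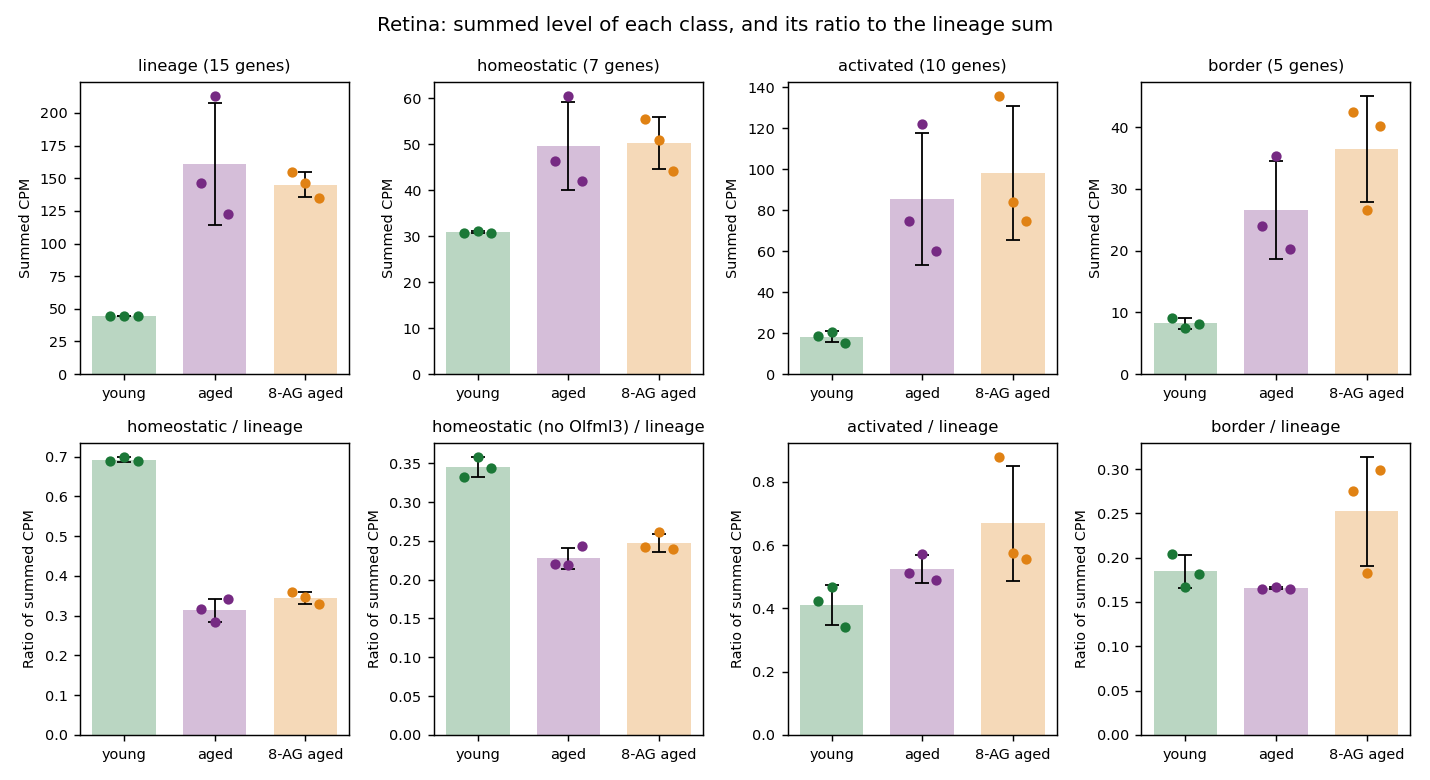
Summed level of the 4 classes in retina in CPM (top row) and the ratio of summed levels to the lineage sum (bottom row), with points for libraries, bars for the mean and whiskers for the SD of 3 libraries. Lineage sums stand at 44.4 to 44.5 CPM in young and 123 to 213 CPM in aged retina, and the homeostatic ratio stands at 0.689 to 0.699 in young and 0.284 to 0.341 in aged retina.

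The summed level of the 10 genes linked to activation and phagocytosis was 18.8, 20.7 and 15.2 CPM in young and 74.8, 122 and 60.3 CPM in aged retina. Of 6 tested, 3 were called, all higher, and without the filter 6 of 10 were. Cybb, the NADPH oxidase subunit gp91phox, was at 1.77, 1.43 and 1.497 CPM in young and 5.43, 7.15 and 4.57 CPM in aged retina, and its log2 fold change was 1.87 ± 0.24 (adjusted p = 0.000995, edgeR). Gpnmb, a glycoprotein of phagocytic cells and of pigment cells, was at 5.09, 3.60 and 3.13 CPM in young and 22.9, 38.9 and 16.8 CPM in aged retina. Its log2 fold change was 2.74 ± 0.41 (adjusted p = 0.0126, edgeR), and the call was lost without young library 2 or 3, at 2.69 and 2.59. Spp1, the secreted protein osteopontin, was at 5.01, 4.503 and 4.08 CPM in young and 21.2, 40.3 and 19.5 CPM in aged retina, and it was called as well. Spp1 and Gpnmb were a larger share of the lineage sum in every aged library than in any young one, whereas Trem2, Cybb, Lgals3 and Clec7a overlapped. Cd14 and Cd86 were a smaller share in every aged library, as were 94.9% of all genes tested.

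Cd68, a lysosomal marker of phagocytes, had 3, 4 and 1 counts in young and 20, 31 and 10 counts in aged retina and did not pass the filter. Fitted with no filter, it rose by 2.79 ± 0.57 on the log2 scale (adjusted p = 0.00156, edgeR), and Trem2, the lipid-sensing receptor, and Clec7a, the receptor dectin-1, were called too. Lgals3, the lectin galectin-3, was at 3.39, 5.93 and 0.817 CPM in young and 15.3, 23.3 and 10.9 CPM in aged retina. The groups did not overlap, and with the wide spread in young retina the log2 fold change of 2.31 ± 0.69 was not called (adjusted p = 0.104, edgeR), though DESeq2 called it. Cd14, the lipopolysaccharide co-receptor, and Cd86, a costimulatory ligand, were at log2 fold changes of 1.02 and 0.57 and not called. Without aged library 1, Cd14 was called, at 1.23. Cst7, a cystatin of activated microglia, had at most 5 counts in any retina library.

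Of the border and monocyte genes, lysozyme was the one called. Lyz2 was at 6.93, 6.15 and 7.69 CPM in young and 21.0, 31.8 and 18.6 CPM in aged retina, and its log2 fold change was 1.78 ± 0.21 (adjusted p = 0.00163, edgeR). Mrc1, the mannose receptor, had 12, 8 and 1 counts in young and 9, 19 and 5 counts in aged retina, which overlapped (log2 fold change 0.55 ± 0.71). Cd163, Lyve1 and Msr1 had at most 15 counts in any young or aged library and were not tested in the filtered fit. Without the filter none of these 3 was called, with log2 fold changes of 1.30 to 1.64.

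Markers of other leukocytes were also summed in retina. Dendritic cell markers (5 of 5 genes found) were at 11.7 to 11.9 CPM in young and at 25.3, 104.646 and 21.7 CPM in aged retina, without overlap between the groups. Of these, Cd74, which encodes the invariant chain of MHC class II and is also made by macrophages, was at 0.748 to 1.46 CPM in young and 16.2, 95.0 and 10.8 CPM in aged retina, while Ccr7 was at 0 in every retina library and Xcr1 at 0.208 CPM or less. Flt3 overlapped, at 3.45 to 4.08 CPM in young and 3.96 to 4.91 CPM in aged retina. Zbtb46 went the other way, at 6.78 to 7.28 CPM in young and 4.66 to 6.09 CPM in aged retina. The higher sum therefore came from Cd74. Mast cell markers (6 of 6 genes found) were at 24.5 to 30.7 CPM in young and 28.8 to 36.2 CPM in aged retina, nearly all of it from Kit, with Cpa3 and Cma1 at 0 in every library. The summed T and NK cell markers (7 genes) were at 0.612 to 0.925 CPM in young and 1.16 to 3.45 CPM in aged libraries, the B and plasma cell markers (5 genes found) at 0.510 to 1.31 CPM over both groups, and the neutrophil markers (7 genes found) at 2.101 to 2.77 and 2.42 to 5.55 CPM. Erythrocyte markers (5 genes found) were at 30.8 to 52.3 CPM in young and 95.2, 496 and 106 CPM in aged retina, again without overlap. RPE markers (7 of 7 genes found) were at 36.7 to 137 CPM in young and 67.8 to 177 CPM in aged retina, which overlapped. Rod photoreceptor markers (9 of 9 genes found) summed to 49734 to 54724 CPM in young and 30353 to 35136 CPM in aged retina, and the part of these markers in the higher microglia genes was not tested. Lens crystallins stood at 2586, 5473 and 131 CPM in young retina and at 17.0 to 23.9 CPM in aged retina.

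Other genes of the pathway followed in part. Of 32 genes that are no members of the set, 29 were tested in retina and 18 were higher with age, with none lower, beside 7.29% of all genes higher. Without the filter 18 of the 32 were higher, beside 5.75% of all genes. C1qa, C1qb and C1qc, which microglia make for complement-dependent removal of synapses, were among the widest changes. C1qb rose from 2.93, 3.08 and 3.20 CPM to 17.5, 25.0 and 13.2 CPM, a log2 fold change of 2.60 ± 0.24 (adjusted p = 0.000431, edgeR), and C1qa rose by 2.56 ± 0.25. Of 6 signalling genes downstream of TYROBP and CSF1R, 4 were called, with the kinase Lyn at a log2 fold change of 1.58 ± 0.17 and the phosphatase Inpp5d at 1.65 ± 0.25. Irf5, a transcription factor of inflammatory macrophages, was at a log2 fold change of 2.26 ± 0.34. Of 7 ligands and carriers, 4 were called. Csf1, a ligand of CSF1R, was at 9.17, 8.40 and 6.94 CPM in young and 15.1, 17.2 and 13.5 CPM in aged retina, and its log2 fold change was 0.90 ± 0.14 (adjusted p = 0.00299, edgeR). Cd47, the "do not eat me" ligand, rose by 0.58 ± 0.07 on the log2 scale.

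No gene of the set was called after 8-AG in aged retina. This held by edgeR for the 36 genes that passed the filter and for all 37 without it, and by DESeq2, where 0.0205% of all genes were called with the filter (3 of 14631), 0.0477% without it and 0.0858% by DESeq2, and 3 of the 36 had an unadjusted P under 0.05 by edgeR and 1 by DESeq2. The median log2 fold change over the 36 genes was −0.02, with 17 above and 19 below 0. By the study's rule 2 genes were higher, against 0.526% of all genes, and 1 was lower, against 0.431%. Of the lineage genes, 12 of 15 were below 0, at a class median of −0.12, and all 5 border genes were above 0, at a class median of 0.96. The smallest adjusted p over the 36 genes was 0.9957 by edgeR with the filter.

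The 2 genes higher by the study's rule mark border macrophages. Mrc1 had 9, 19 and 5 counts in aged and 26, 21 and 31 counts in 8-AG aged retina, or 0.698, 1.21 and 0.346 CPM against 1.998, 1.71 and 2.07 CPM. The groups did not overlap and the log2 fold change was 1.33 ± 0.40 (adjusted p = 0.996, edgeR). Lyve1, a hyaluronan receptor, had 13, 14 and 10 counts in aged and 24, 18 and 27 counts in 8-AG aged retina, a log2 fold change of 0.98 ± 0.30 (adjusted p = 0.996, edgeR). Mrc1 and Lyve1 were too low in aged retina to pass the filter there, and passed it only through the treated libraries. Neither was called in the fit without the filter. Cd163, the haemoglobin scavenger receptor, was at 0.465, 0.958 and 0.208 CPM in aged and 1.69, 0.488 and 1.07 CPM in 8-AG aged retina, which overlapped. Summed over Cd163, Mrc1, Lyve1 and Msr1, the level was 2.80 ± 0.97 CPM (SD, n = 3) in aged and 5.47 ± 1.12 CPM in 8-AG aged retina. Endothelial markers summed to 628 to 750 CPM in aged and 568 to 706 CPM in 8-AG aged retina. RPE markers summed to 67.8 to 177 and 154 to 271 CPM, and the part of adherent RPE/choroid in the border genes was not tested.

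Ly86 was the gene lower by the study's rule, with 27, 40 and 25 counts in aged and 9, 17 and 20 counts in 8-AG aged retina. Its log2 fold change was −0.90 ± 0.33 (adjusted p = 0.996, edgeR). C3ar1 was at 1.16, 1.34 and 1.11 CPM in aged and 2.54, 1.38 and 1.81 CPM in 8-AG aged retina, a log2 fold change of 0.66 ± 0.31 with groups that just did not overlap. Cybb was at a log2 fold change of 0.45 ± 0.21. Aif1 was at −0.40 ± 0.27, Cx3cr1 at −0.13 ± 0.23, Cd68 at 0.06 ± 0.40 and C5ar1 at 0.20 ± 0.43, and the aged and treated libraries of these 4 genes overlapped.

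The direction of this comparison rested on aged library 2, which was the highest aged library for 33 of the 37 genes. Because that library was the highest for most of these genes, leaving it out shifts their changes upward. Without it, the median log2 fold change was 0.28 and 30 of 35 genes were above 0, against 52.2% of all genes. By the study's rule 6 genes were then higher, against 0.761% of all genes, and none lower. Those 6 were Mrc1 (1.89 ± 0.41), Clec7a (1.33 ± 0.36), Cybb (0.65 ± 0.22), Lyz2 (0.65 ± 0.21), Lyve1 (1.01 ± 0.37) and Cd163 (1.69 ± 0.65), and none was called (smallest adjusted p = 0.409, edgeR). Mrc1, Clec7a, Lyve1 and Cd163 were low in the aged libraries left and passed the filter only through the treated libraries. These libraries were not fitted without the filter. Cx3cr1 changed sign, to 0.14.

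**Figure D3:**
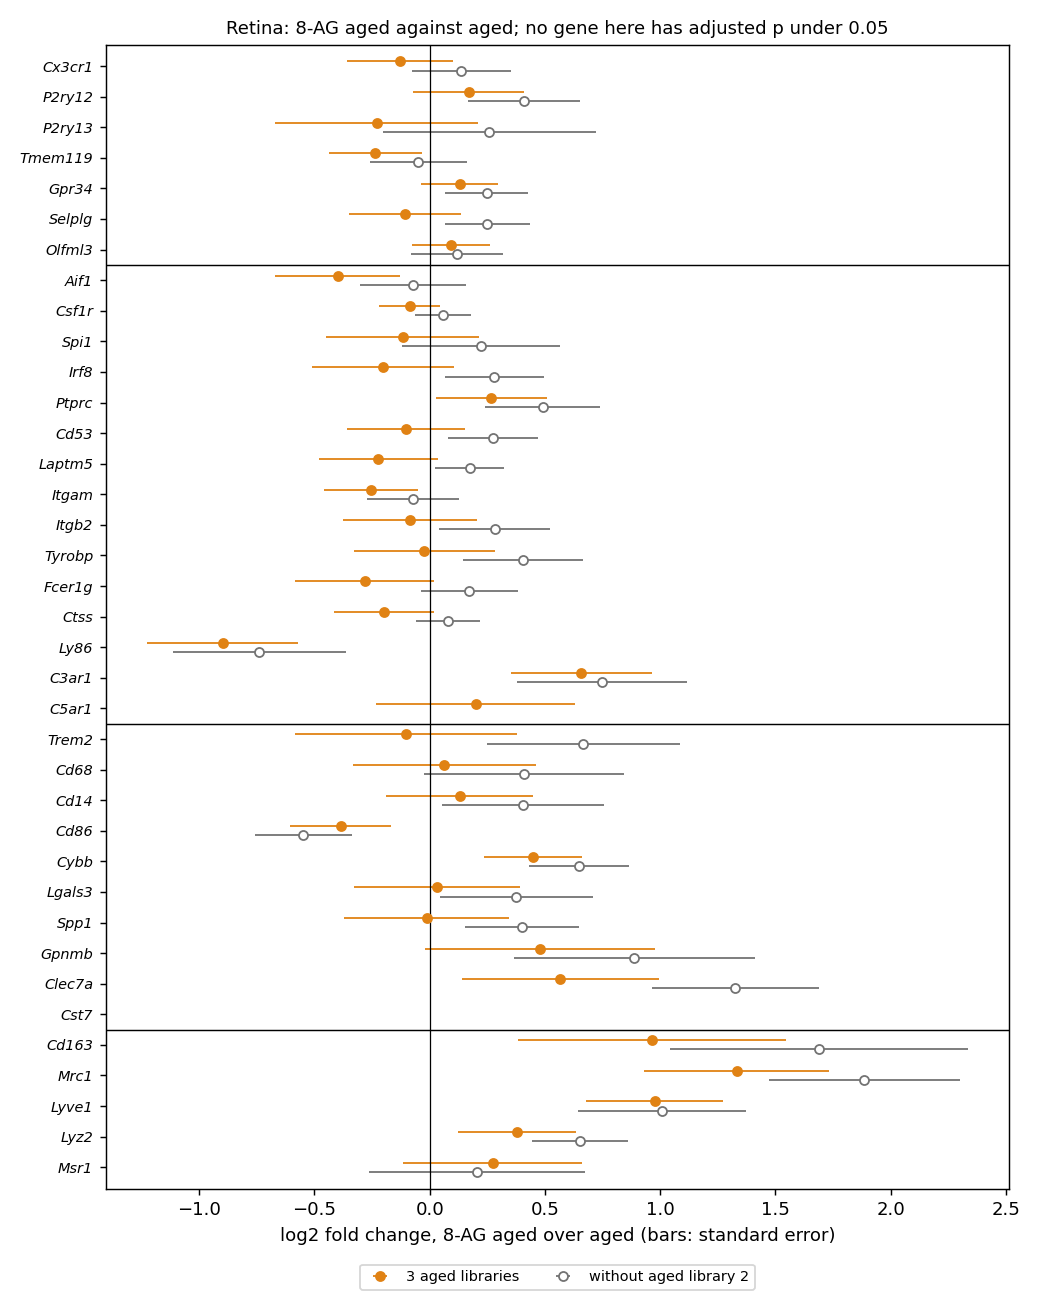
Log2 fold change in retina, 8-AG aged over aged, for each gene tested, with the standard error as bars, from all 3 aged libraries (filled) and without aged library 2 (open); horizontal lines separate the 4 classes, top to bottom homeostatic, lineage, activated and border. With 3 aged libraries the genes lie from −0.90 (Ly86) to 1.33 (Mrc1), and without aged library 2 most move to the right.

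Against young retina, 8-AG aged retina differed in the same classes. Of 32 genes tested, 28 were higher and none lower, against 7.78% of all genes higher, and without the filter 30 of 37 were higher against 5.55%. The median log2 fold change was 1.87. This comparison shares its young libraries with that of aged and young retina, so the values are given side by side only. Csf1r was at 1.40 ± 0.11 (1.48 in untreated aged retina), Ctss at 1.84 ± 0.11 (2.03), Itgam at 2.02 ± 0.16 (2.27), Aif1 at 1.68 ± 0.24 (2.08), Tyrobp at 2.51 ± 0.30 (2.53) and Spp1 at 2.57 ± 0.24 (2.58). Higher in the treated than in the untreated group were the values of Cybb at 2.32 ± 0.22 (1.87), Lyz2 at 2.17 ± 0.19 (1.78), Ptprc at 2.21 ± 0.22 (1.93) and C3ar1 at 1.89 ± 0.35 (1.23), differences that the direct comparison above did not call. Cx3cr1 was at 0.97 ± 0.20 (1.09). Genes low in young retina, among them Cd68, Lyve1, C3ar1, Tyrobp, Trem2 and Mrc1, passed the filter here only through the treated libraries. In the fit without it, Cd68 was at 2.84 ± 0.53 (adjusted p = 0.00117, edgeR) and Lyve1 at 2.27 ± 0.46 (adjusted p = 0.00243, edgeR). In that fit C3ar1 was at 1.87 ± 0.39 (adjusted p = 0.00326, edgeR) and Tyrobp at 2.50 ± 0.33 (adjusted p = 3.69e-05, edgeR). Trem2 was at 1.91 ± 0.48 (adjusted p = 0.0115, edgeR) and Mrc1 at 1.86 ± 0.53 (adjusted p = 0.0385, edgeR). With the filter, Mrc1 was called at 1.88 ± 0.55 (adjusted p = 0.0491, edgeR). That call was lost with DESeq2 and when any of young libraries 2 and 3 and the 3 treated libraries was left out, at 1.33 to 1.99. The call of Cd14 was likewise lost without any of the 6 libraries (1.05 to 1.27) and that of Gpnmb without any young library (3.08 to 3.45). Trem2 lost its call without young library 3 (1.68), P2ry12 without treated library 2 (0.996), Tmem119 without young library 1 or treated library 2 (0.88 and 0.92) and Selplg without young library 1 or 2 (0.79 each). RPE markers summed to 71.8, 137 and 36.7 CPM in young and 271, 154 and 159 CPM in 8-AG aged retina, without overlap, and their part in the values of Mrc1, Lyve1 and Gpnmb was not tested. Of the pathway genes, 18 of 28 tested were higher and 17 of 32 without the filter, with C1qa at 2.20 ± 0.12.

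In RPE/choroid no gene of the set was called with age. All 37 were tested by edgeR and by DESeq2. None had an unadjusted P under 0.05 by edgeR and 1 did by DESeq2, and none passed the study's rule, against 1.35% of all genes. The median log2 fold change was 0.06, with 22 genes above and 15 below 0, and it was −0.23 without aged library 2, the highest aged library for 35 of the 37 genes. Of the 3 libraries, 2 in the young and 2 in the aged group share a label number and differ in its letter, L or R, and whether these are the eyes of 1 rat is not stated. With each such pair summed the median was −0.10 and none was called. With a score of the rod markers as covariate, 2 genes were lower by the study's rule, against 1.4% of all genes. Csf1r was at 197, 240 and 296 CPM in young and 196, 270 and 150 CPM in aged RPE/choroid, and Aif1 at 128, 146 and 228 CPM in young and 164, 257 and 197 CPM in aged RPE/choroid. Both genes overlapped between groups. The summed lineage level was 1179, 1386 and 1796 CPM in young and 1374, 2025 and 1333 CPM in aged RPE/choroid.

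The genes with the smallest P in that comparison were Tmem119, at 61.5, 80.6 and 119 CPM in young and 54.3, 65.0 and 41.9 CPM in aged RPE/choroid (log2 fold change −0.70 ± 0.29), Lgals3 (0.46 ± 0.21), Cst7 (0.68 ± 0.36), Msr1 (−0.55 ± 0.31) and C3ar1 (−0.36 ± 0.21). Aged library 3 was low in 4 of the 5 border genes, with Cd163 at 4.43 CPM against 29.5 and 45.8 CPM and Mrc1 at 17.6 CPM against 67.6 and 117 CPM in the other aged libraries. Lyz2, the most abundant of the 5, was at 1840 CPM there against 1744 and 2996 CPM. That library was also low in fibroblast markers, at 3392 CPM against 6898 and 9520 CPM, and in mast cell markers, at 45.6 CPM against 124 and 171 CPM. The part of tissue composition in these values was not tested.

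The tissues differed most in Gpnmb. It was one of the most abundant genes of the set in RPE/choroid, at 2378, 2329 and 3156 CPM in young and 2351, 2066 and 1398 CPM in aged tissue (log2 fold change −0.43 ± 0.27), and it is known to be made by pigment cells. In retina it rose with age, as given above. Tested as an interaction over 16792 genes, the aging change was larger in retina than in RPE/choroid for 3 genes, against 0.155% of all genes. These were Gpnmb (difference in log2 fold change 3.18 ± 0.48, adjusted p = 0.0466), Itgam (2.07 ± 0.31, adjusted p = 0.0466) and Ptprc (1.92 ± 0.30, adjusted p = 0.0496), all by edgeR. The next by P were Csf1r (1.74 ± 0.32, adjusted p = 0.064, edgeR) and C3ar1 (1.60 ± 0.30, adjusted p = 0.07, edgeR). These calls did not hold in most of the alternatives: none remained with RLE size factors or limma voom, and without single libraries the count ran from 0 to 4. The differences of these 3 genes stayed positive in every alternative run, and 36 of 37 genes had a larger change in retina, with a median difference of 1.80. The libraries of the 2 tissues differ in preparation and in spread, with common dispersions of 0.0147 in retina and 0.195 in RPE/choroid for aged against young.

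**Figure D4:**
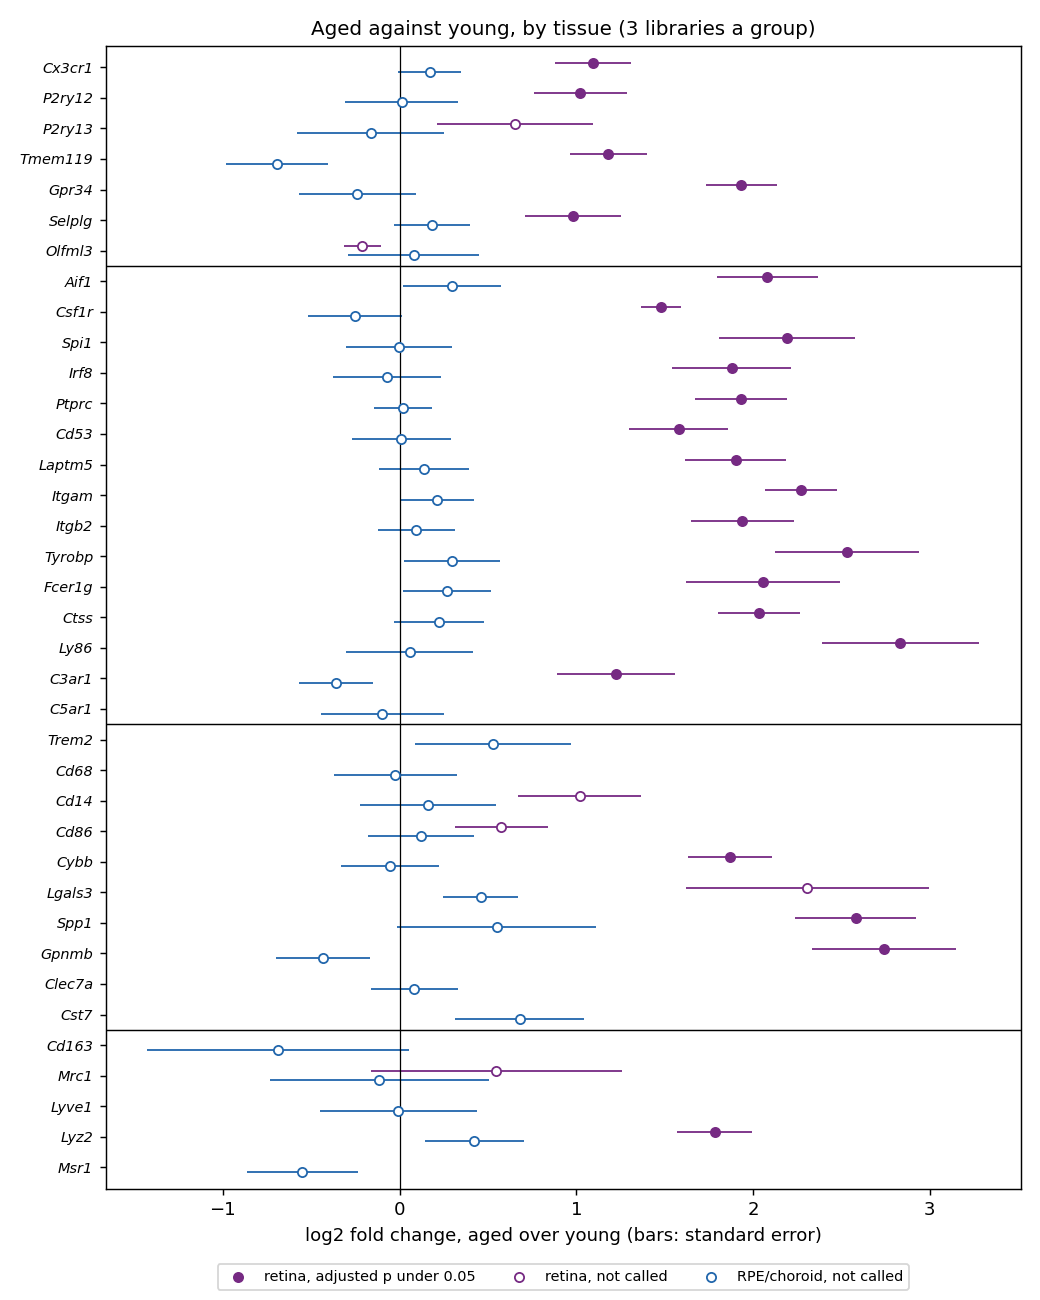
Log2 fold change of aged over young for each gene, in retina and in RPE/choroid, with the standard error as bars (3 libraries a group); filled points have an adjusted p under 0.05, and genes without a retina point did not pass the filter there. Retina points lie mostly between 1 and 3, and RPE/choroid points lie from −0.70 to 0.68.

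After 8-AG, no gene of the set was called in RPE/choroid. Against aged tissue, 0 of 37 genes were called by edgeR or DESeq2, none passed the study's rule (1.65% of all genes did), none had an unadjusted P under 0.05 by either tool, and the median log2 fold change was −0.32. The members with the smallest P were Cd86 (−0.64 ± 0.44), P2ry13 (−0.56 ± 0.42), P2ry12 (−0.37 ± 0.31), Lyve1 (−0.86 ± 0.78) and Mrc1 (−0.96 ± 0.89). Against young tissue, 0 of 37 were called by edgeR or DESeq2, none passed the study's rule (1.99% of all genes did), none had an unadjusted P under 0.05 by edgeR and 1 did by DESeq2. The median was −0.26, with Cd163 at −1.37 ± 0.59, Lgals3 at 0.65 ± 0.38, P2ry13 at −0.73 ± 0.43, Mrc1 at −1.08 ± 0.65 and Cd86 at −0.53 ± 0.37. With the rod marker score as covariate, none was called, but 11 genes were lower by the study's rule against aged tissue (3.73% of all genes were) and 27 against young tissue (10.9%), with medians of −0.87 and −1.17.

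In 8-AG library 1 the lineage sum was 391 CPM against 1745 and 1677 CPM in the other treated libraries, and Gpnmb was at 86.2 CPM against 2923 and 3303 CPM. Endothelial markers were at 597 CPM and fibroblast markers at 952 CPM, where the other 8 libraries held at least 2973 and 3392 CPM. Without that library, and with no covariate, the median log2 fold change was 0.11 against aged and 0.20 against young tissue. Against young tissue, 4 genes then passed the study's rule, against 4.15% of all genes: Cd163 (−0.95 ± 0.31) and Mrc1 (−0.61 ± 0.22) lower and Lgals3 (0.91 ± 0.30) and Cx3cr1 (0.69 ± 0.26) higher, and none was called (adjusted p = 0.773 for each, edgeR). With the other 2 treated libraries Csf1r was at 221 and 211 CPM and Aif1 at 211 and 239 CPM, within the range of the aged libraries.

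**Figure D5:**
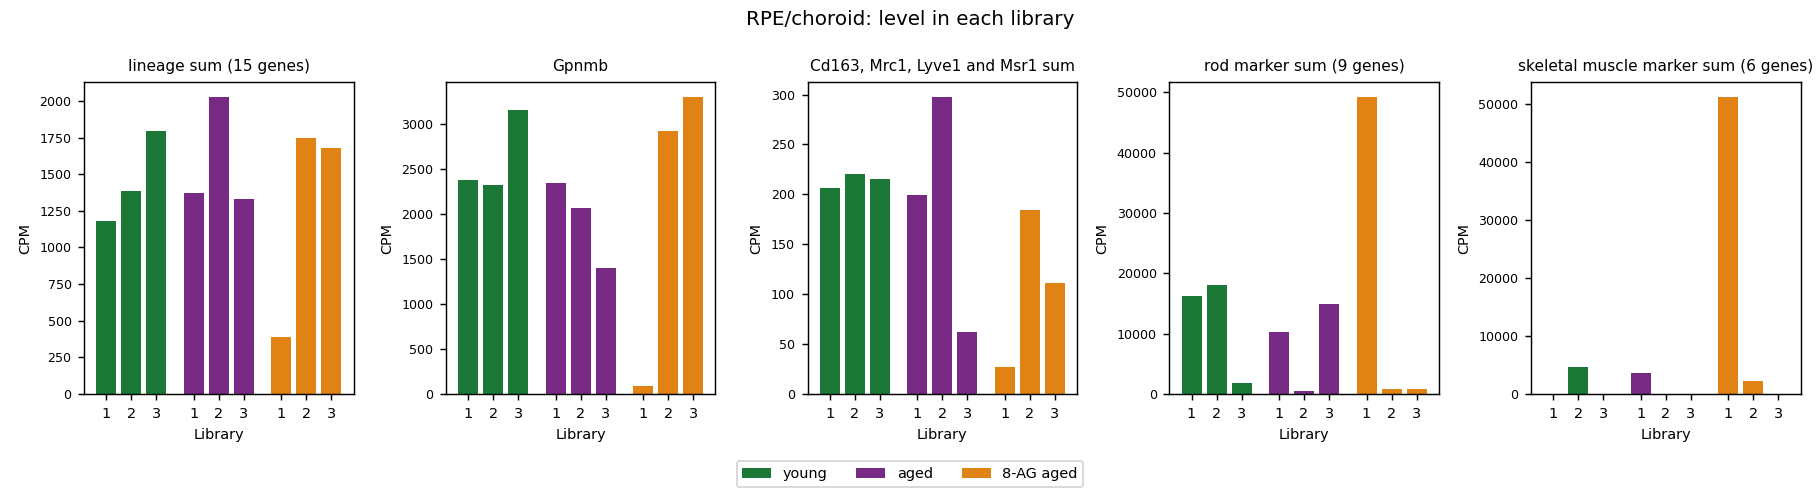
Level in each of the 9 RPE/choroid libraries, in CPM, of the lineage sum, Gpnmb, the sum of 4 border genes, and the sums of rod and of skeletal muscle markers; each bar is 1 library and each panel has its own axis from 0. 8-AG library 1 has the lowest lineage, Gpnmb and border values (391, 86.2 and 27.4 CPM) and the highest rod and muscle sums.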

How the data were processed

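The authors sequenced 18 libraries, 3 in each of 6 groups. For retina the authors deposited expected counts estimated by RSEM, of which 11.5% were not whole, and these were rounded. The RPE/choroid files hold raw counts per gene as deposited. A table of TMM-normalized signal deposited for retina served only to pair symbols with identifiers. The submitters' processing notes name Bowtie2 2.1.0, RSEM 1.2.15, edgeR and build Rnor_6.0. The authors' own tables of fold changes and p-values were used for gene names only.

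Of the 37 genes, 36 were identified by name and 1, Itgam, by matching values between tables to within 0.5 counts. The 6 libraries of a comparison were fitted alone, for each of 6 comparisons, by edgeR 4.0.16 under R 4.3.3 (filterByExpr, TMM, estimateDisp, glmQLFit with robust=TRUE, glmQLFTest). The interaction of age and tissue was fitted to 12 libraries. A standard error is the absolute log2 fold change divided by the square root of F. The fits were tested on simulated data. Alternatives were RLE size factors, no filter, DESeq2 1.42.0, all 3 groups in 1 fit, a replicate block, each library left out, limma voom (limma 3.58.1), and, in RPE/choroid, libraries sharing a label number summed and a rod score as covariate.

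The members and lists were chosen with earlier results of these data known. A log2 fold change with its error is given for up to 12 called genes with the smallest P, or the 5 with the smallest P where fewer than 5 were called, and for the genes the study names. Others, such as Olfml3, Gpnmb, Lgals3, P2ry13 and Mrc1 in aged against young retina, were chosen after their values were seen. The labels do not say that libraries of a group came from separate animals, and 2 of the 3 young and 2 of the 3 aged RPE/choroid libraries share a label number with the letters L and R, so p-values measure the spread between these libraries, which may be technical.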

Additional observations from a re-analysis of the deposited data

Results flagged for a closer look

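The aging change differed between retina and RPE/choroid for 3 genes by the interaction test of edgeR over all genes. The difference in log2 fold change, retina minus RPE/choroid, was 3.18 for Gpnmb, 2.07 for Itgam and 1.92 for Ptprc. In retina every aged library lay above every young library for all 3 genes, as for 17.5% of all genes tested. In RPE/choroid the groups overlapped. These are the values that the interaction test itself used. The adjusted p of each was between 0.0466 and 0.0496 and rose above 0.05 under most alternatives, as given in the next part.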

How the results depend on the processing

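Counts of called genes in the 6 comparisons stayed within 1.5 times the reported ones under every alternative run. Leaving out single libraries gave 20 to 24 for aged against young retina and 24 to 27 for 8-AG aged against young retina. Over all genes, 668 to 1107 and 593 to 1248 were higher in these runs. The main fits had 1063 of 14588 and 1131 of 14542 higher. In the other 4 comparisons the count was 0 under every alternative. The count of 3 for the interaction fell to 0 with RLE size factors, with limma voom and with the replicate block, stayed at 3 without the filter, and ran from 0 to 4 without single libraries. The cause was not tested.

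Whether the replicate numbers pair the libraries could not be decided with 3 libraries a group. Same-numbered libraries had correlations of their deviations from −0.252 to 0.217 in retina and −0.577 to 0.648 in RPE/choroid. In each tissue 3 of 9 libraries correlated best with one of their own number. With the replicate block, 24 genes were called in aged against young retina, 26 in 8-AG aged against young retina and 0 in the other comparisons and the interaction.

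Sign changes occurred among genes that were not called. Without single libraries, Mrc1 in aged against young retina ran from −0.0060 to 1.21 on the log2 scale, Cd68 in 8-AG aged against aged retina from −0.27 to 0.41 and Cx3cr1 there from −0.28 to 0.14, and, in 8-AG aged against young retina, Cd86 ran from −0.017 to 0.39 and Olfml3 from −0.33 to 0.0023. Depth limits Cst7, C5ar1, Cd163 and Msr1 in retina, where no library held over 22 counts.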

Other observations

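In RPE/choroid, Tmem119 was the one homeostatic gene whose share of the lineage sum did not overlap between young and aged libraries, and 5.11% of all genes tested were lower by that measure without overlap. It was 5.22, 5.82 and 6.62% of the lineage sum in young, 3.96, 3.21 and 3.14% in aged and 2.61, 5.55 and 3.39% in 8-AG aged tissue. In the other classes, the shares of Csf1r, C3ar1, Cybb, Cd163 and Msr1 were also lower without overlap. Those of Fcer1g, Cst7 and Lyz2 were higher without overlap, as were 1.23% of all genes tested. The ratio of the whole homeostatic sum to the lineage sum overlapped, at 0.228507 to 0.247 in young and 0.184 to 0.228539 in aged RPE/choroid. In the young and in the aged group, 2 of the 3 libraries share a label number with the letters L and R and may come from 1 rat, so the spread between animals may be understated. These values were noticed after the data were seen and were not tested.

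In retina, Gpnmb as a share of the lineage sum averaged 8.85% for young, 15.8% for aged and 24.8% for 8-AG aged libraries. The treated mean rests on library 1, with Gpnmb at 57.8 CPM against 29.0 and 23.0 CPM in the others. That library also held the highest treated sums of RPE markers, at 271 CPM against 154 and 159 CPM, and of lens crystallins, at 1663 CPM against 19.1 and 22.0 CPM, and their part in the value was not tested.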
